A study of Homo sapiens with 6 samples.

Results

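The EGF receptor (ERBB) family and the EGF-like ligands that bind it were followed in AsPC-1, a long-established line of human pancreatic cancer cells, after lentiviral overexpression of MMP28, a secreted matrix metalloproteinase. The members were taken by gene symbol as the receptors EGFR, ERBB2, ERBB3 and ERBB4 and the ligands AREG, EREG, TGFA, HBEGF, BTC and EGF, which are 10 of the 58735 genes in the expression table. Of these, 8 passed the filter on low counts and were tested among 15319 genes, and ERBB4 and EGF did not pass. RNA sequencing had been carried out on 6 libraries. In the Vector group (labels NC_1 to NC_3, genotype WT, n = 3) the cells carried an empty virus. In the OE-MMP28 group (labels OE_1 to OE_3, genotype MMP28 overexpression, n = 3) they carried a lentivirus with MMP28 cDNA. Both groups were therefore infected cells, and no uninfected cells were analysed here. Per the study's methods the construct also carries GFP and a puromycin marker and gives stable lines, and the labels do not say whether the libraries of a group came from separate cultures. The p-values then measure only the spread between these libraries, which may be technical.

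ERBB receptors are tyrosine kinases of the cell surface that pair on ligand binding and signal through the ERK and PI3K pathways. EGFR is bound by EGF, TGFα and amphiregulin (AREG), and by epiregulin (EREG), betacellulin (BTC) and HB-EGF, of which the last 3 can also engage ERBB4, whereas ERBB2 has no known ligand and ERBB3 has a weak kinase and binds neuregulins. The ligands are made as membrane-anchored precursors that ADAM proteases cut loose, and in pancreatic cancer this receptor system is a long-studied drug target.

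Total counts per library lay between 13633249 and 16691458. MMP28 was measured at 5.17, 9.11 and 8.43 FPKM (fragments normalised by the authors for the length of the gene and the depth of the library) in Vector 1 to 3 and at 13.1, 13.9 and 15.1 FPKM in OE-MMP28 1 to 3. Its log2 fold change was 0.90 (SE 0.19, edgeR adjusted p = 0.00226), and the two-sided exact permutation test of the FPKM values gave p = 0.1, the smallest that 3 against 3 libraries allow. The count may hold both the endogenous and the lentiviral transcript. The 6 epithelial markers examined summed to between 2579 and 3520 FPKM in the Vector group. In the OE-MMP28 group they summed to between 3517 and 4305 FPKM. KRT8, KRT18, KRT19 and EPCAM led the sum, and KRT7 was low, at 0.597 to 2.22 FPKM. Within this list KRT19 was higher in OE-MMP28 cells (log2 fold change 0.71, edgeR adjusted p = 0.00175), CDH1, the gene of E-cadherin, was lower (-0.59, 0.0113), and the other 4 did not pass. CD3E, INS, GCG, PRSS1 and CPA1 were at 0 counts in every library, and of the 6 fibroblast markers LUM alone exceeded 0.1 FPKM, at 33.8 to 56.9 FPKM. The 5 leukocyte markers summed to at most 1.09 FPKM, nearly all of it CD14. The 3 endothelial markers summed to 0.0441 to 0.170 FPKM in the Vector group and 0.179 to 0.293 FPKM in the OE-MMP28 group. PECAM1, among them, had 0, 4 and 4 counts in Vector 1 to 3 and 13, 21 and 30 in OE-MMP28 1 to 3. It was called higher (edgeR adjusted p = 0.00361). It passed the low-count filter only through the OE-MMP28 group, so this call is not read as a result. CELA3A and SST, of the acinar and endocrine lists, had at most 4 and 5 counts. The calls of KRT19, CDH1 and PECAM1 were not run under the alternatives, and the part of these markers in the members' results was not tested.

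Among the receptors, EGFR and ERBB3 were abundant, ERBB2 was far lower and ERBB4 was not detected. ERBB3 was lower in OE-MMP28 cells, and the values of EGFR and ERBB2 overlapped between the groups. Among the ligands, AREG was the most abundant, and BTC, the least abundant of those tested, was higher in OE-MMP28 cells. BTC passed the low-count filter only with the OE-MMP28 libraries counted. Of the 8 members tested, 1 was higher (BTC) and 1 was lower (ERBB3) at an edgeR adjusted p under 0.05. Over all tested genes, 11.7% were higher and 11.6% were lower, 23.4% in all, so the members were called about as often as genes at large. The median log2 fold change of the 8 members was 0.040, against 0.014 for all genes tested. In 3 members (ERBB3, HBEGF and BTC) no OE-MMP28 value fell within the Vector range or the reverse, and such separation was found for 38.1% of all genes tested.

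**Figure D1:**
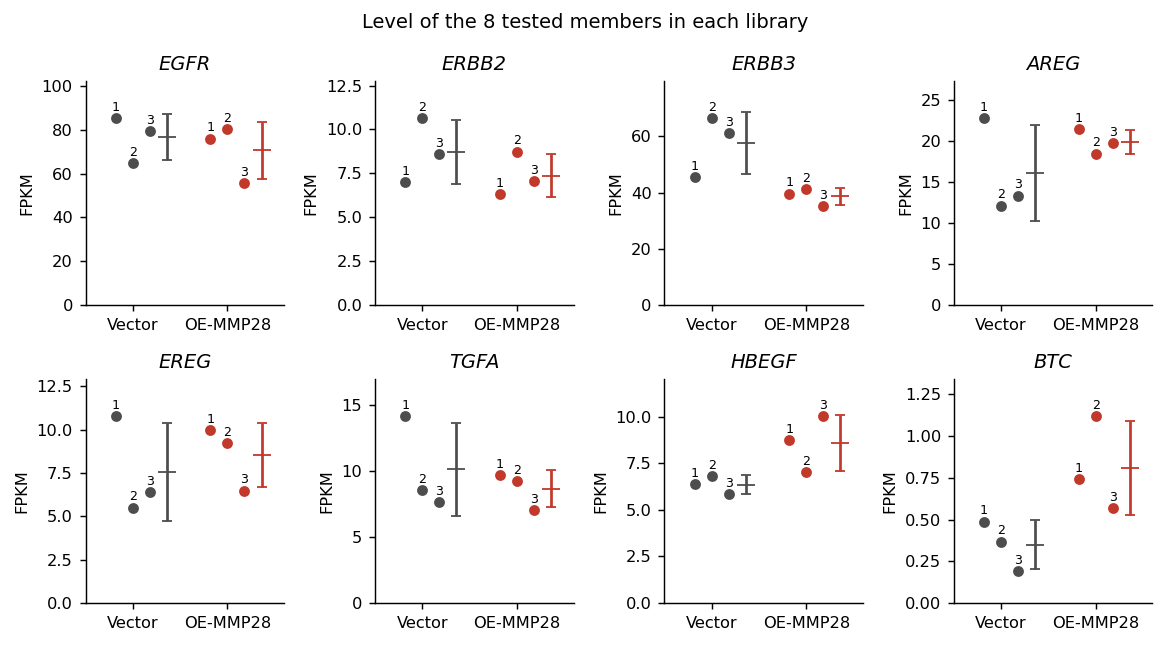
FPKM of the 8 tested members in each library, with the replicate number beside each point and the group mean ± SD (n = 3) as a bar to its right. Vertical axes start at 0 and differ between genes. The groups separate for ERBB3, HBEGF and BTC, and Vector 1 lies above the other Vector libraries for AREG, EREG and TGFA.

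EGFR, the receptor that all of these ligands bind, is on chromosome 7 (GRCh38, chr7:55019021-55211628, plus strand). It was measured at 85.1, 64.9 and 79.5 FPKM in Vector 1 to 3 and at 75.9, 80.2 and 55.5 FPKM in OE-MMP28 1 to 3. The groups overlapped, and OE-MMP28 3 was the lowest of all 6 libraries. The group means were 76.5 ± 10.4 and 70.5 ± 13.2 FPKM (SD, n = 3). The fold change was 0.928, with a 95% interval from 0.737 to 1.17 (edgeR adjusted p = 0.672). The sign turned without OE-MMP28 3, where the log2 fold change was 0.036 (edgeR adjusted p = 0.906). Counts per library were 10980 to 16292, and 1.49% of the exonic bases of EGFR are shared with the antisense gene EGFR-AS1, which had at most 39 counts.

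ERBB2, the ligandless partner of the other receptors, is on chromosome 17 (chr17:39687914-39730426, plus strand). Its level was 6.996, 10.6 and 8.59 FPKM in the Vector libraries and 6.33, 8.75 and 7.07 FPKM in the OE-MMP28 libraries. The groups overlapped. The fold change was 0.852 (95% interval 0.662 to 1.10, edgeR adjusted p = 0.365). Its exons overlap those of MIEN1 and PGAP3 on the opposite strand, over 5.53% and 1.88% of its exonic bases. MIEN1 had at most 413 counts and PGAP3 at most 336, beside 1033 to 1483 for ERBB2. Reads in the overlaps cannot be assigned to a strand when the counting does not use it.

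ERBB3, which binds neuregulins and passes signals to PI3K when paired with another receptor, is on chromosome 12 (chr12:56076799-56103505, plus strand). It was measured at 45.4, 66.4 and 61.1 FPKM in Vector 1 to 3 and at 39.7, 41.1 and 35.1 FPKM in OE-MMP28 1 to 3. Every OE-MMP28 library was below every Vector library, and Vector 1 was the closest of the Vector libraries to them. The mean fell from 57.6 ± 10.9 to 38.6 ± 3.13 FPKM (SD, n = 3). The log2 fold change was -0.57 (SE 0.16), a fold of 0.675 with a 95% interval from 0.538 to 0.847 (edgeR adjusted p = 0.0127). The direction held under all 18 alternatives, but with groups that do not overlap, leaving out a library could hardly turn it. The call was lost without Vector 3 (edgeR adjusted p = 0.0617), without OE-MMP28 3 (0.0581) and when limma was applied to log2(FPKM + 1) (0.0602). Counts were 5341 to 8146 per library. In RNA from bulk cultures, fewer cells with ERBB3 transcript and less ERBB3 transcript per cell cannot be told apart.

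ERBB4, a receptor for neuregulins and for some of the ligands here, is on chromosome 2 (chr2:211375717-212538841, minus strand). It had 0 counts in all 6 libraries. A count of 0 allows up to 3 counts, which is 0.0138 to 0.0169 FPKM in these libraries.

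The summed receptor FPKM was 143 ± 5.90 in the Vector group and 117 ± 16.8 in the OE-MMP28 group (SD, n = 3). ERBB3 made up 33.0%, 46.8% and 41.0% of this sum in Vector 1 to 3 and 32.6%, 31.6% and 35.9% in OE-MMP28 1 to 3. Vector 1 thus lay inside the OE-MMP28 range on this measure, although its ERBB3 level did not. The ratio of ERBB3 to EGFR FPKM was 0.534, 1.02 and 0.770 in the Vector libraries and 0.523, 0.513 and 0.633 in the OE-MMP28 libraries. In Vector 2 alone ERBB3 exceeded EGFR. ERBB2 held a mean share of 6.11% in the Vector group and 6.38% in the OE-MMP28 group, a difference smaller than the SD of either group (1.24 and 1.06 percentage points).

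**Figure D2:**
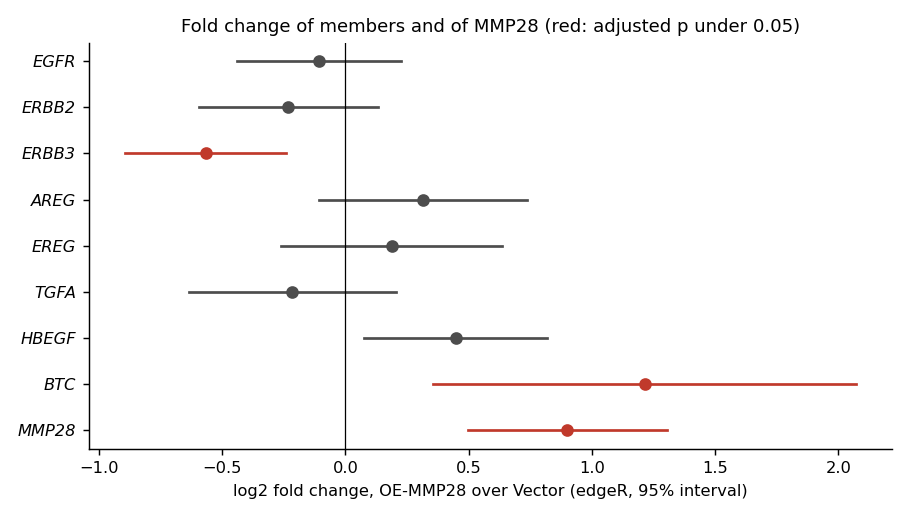
Log2 fold change of OE-MMP28 over Vector for the 8 tested members and for MMP28 (edgeR, n = 3 per group). Points are estimates, bars are 95% intervals and red marks an adjusted p under 0.05. The interval of ERBB3 lies below 0, those of BTC and HBEGF lie above 0, and that of BTC is the widest.

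For the ligands, promoter sequences are shown first, for AREG, EREG and HBEGF. AREG and EREG are neighbours on chromosome 4 and were both highest in Vector 1, and HBEGF was not. TGFA was also highest in Vector 1, and its promoter is not shown. The sequences come from RefSeq (GRCh38.p14) and end at the base before the annotated first exon. Capitals mark matches, on either strand, to the cyclic AMP response element TGACGTCA, the AP-1 site TGANTCA, the GC box GGGCGG and the TATA box TATAAA.
AREG, chr4:74444886-74445133, plus strand: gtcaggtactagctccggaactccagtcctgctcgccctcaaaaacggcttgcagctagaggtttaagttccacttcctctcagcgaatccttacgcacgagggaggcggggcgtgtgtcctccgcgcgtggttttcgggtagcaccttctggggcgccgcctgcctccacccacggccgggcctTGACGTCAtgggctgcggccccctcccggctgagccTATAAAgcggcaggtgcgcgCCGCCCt
EREG, chr4:74364895-74365142, plus strand: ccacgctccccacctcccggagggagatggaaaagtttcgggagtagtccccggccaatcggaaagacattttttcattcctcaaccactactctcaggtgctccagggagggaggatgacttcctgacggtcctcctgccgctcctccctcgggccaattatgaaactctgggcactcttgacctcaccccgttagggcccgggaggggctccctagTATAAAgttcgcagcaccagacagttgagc
HBEGF, chr5:140346632-140346853, minus strand: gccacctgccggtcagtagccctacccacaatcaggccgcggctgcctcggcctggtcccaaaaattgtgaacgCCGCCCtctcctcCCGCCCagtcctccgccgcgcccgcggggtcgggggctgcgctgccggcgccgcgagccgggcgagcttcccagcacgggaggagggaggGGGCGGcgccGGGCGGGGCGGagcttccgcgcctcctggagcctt

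In the 250 bases before the RefSeq start, AREG held a GC box 9 bases, a TATA box 29 bases and a cyclic AMP response element 65 bases upstream. EREG held a TATA box 32 bases upstream. HBEGF held 5 GC boxes, at 176, 163, 73, 63 and 58 bases, of which the last 2 overlap by 1 base, and no TATA box of these letters. A TATA box of these letters stood in 10.8% of 34943 promoter windows of the same length, a GC box in 42.5%, an AP-1 site in 6.59% and the cyclic AMP response element in 1.63%. Among the other members, AP-1 letters were found before EGF, ERBB2 and the second listed start of EGFR, which also had 2 TATA boxes. GC boxes were found before the first listed starts of TGFA (3) and EGFR (2) and before ERBB4 (1). TGFA, which was also highest in Vector 1, had no TATA box of these letters, and BTC had no match to any of these motifs. ERBB3 had no entry. These matches are descriptions of the letters and not bound sites.

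AREG, a ligand of EGFR made by many epithelial tumours, is on chromosome 4 (chr4:74445134-74455009, plus strand). It was measured at 22.7, 12.1 and 13.3 FPKM in Vector 1 to 3 and at 21.4, 18.4 and 19.7 FPKM in OE-MMP28 1 to 3. Vector 1 was the highest of the 6 libraries, and the other Vector libraries were below all of the OE-MMP28 libraries. The means were 16.1 ± 5.81 and 19.9 ± 1.48 FPKM (SD, n = 3). AREG had a log2 fold change of 0.31 (SE 0.20), a fold of 1.24 with a 95% interval from 0.929 to 1.67 (edgeR adjusted p = 0.277). Without Vector 1 it was 0.65 (edgeR adjusted p = 0.0125), so the call depended on 1 library. Leaving out the highest Vector value separates the groups by construction, so this run is not read as a result.

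EREG, a ligand of EGFR and ERBB4, starts 80.0 kb upstream of AREG (chr4:74365143-74388751, plus strand). Its values were 10.8, 5.50 and 6.39 FPKM in Vector 1 to 3 and 9.98, 9.21 and 6.48 FPKM in OE-MMP28 1 to 3. Vector 1 was again the highest library, and OE-MMP28 3 lay beside Vector 3. EREG had a log2 fold change of 0.19 (SE 0.21), a fold of 1.14 with a 95% interval from 0.835 to 1.55 (edgeR adjusted p = 0.571). Without Vector 1 it was 0.53 (edgeR adjusted p = 0.0485), with the same limit as for AREG.

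TGFA, which encodes TGFα, an EGFR ligand that often acts on the cell that makes it, is on chromosome 2 (chr2:70447280-70554193, minus strand). It was measured at 14.2, 8.54 and 7.68 FPKM in Vector 1 to 3 and at 9.72, 9.27 and 7.05 FPKM in OE-MMP28 1 to 3. Vector 1 stood above all other libraries, and the remaining 5 overlapped. For TGFA the log2 fold change was -0.22 (SE 0.20), a fold of 0.861 with a 95% interval from 0.643 to 1.15 (edgeR adjusted p = 0.478). Without Vector 1 the sign turned, to 0.11 (edgeR adjusted p = 0.730).

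HBEGF, the heparin-binding ligand of EGFR and ERBB4, is on chromosome 5 (chr5:140332843-140346631, minus strand). Its values were 6.39, 6.82 and 5.82 FPKM in Vector 1 to 3 and 8.74, 7.002 and 10.02 FPKM in OE-MMP28 1 to 3. The groups did not overlap, with OE-MMP28 2 just above the highest Vector library. The means were 6.34 ± 0.498 and 8.59 ± 1.52 FPKM (SD, n = 3). The log2 fold change was 0.45 (SE 0.18), a fold of 1.36 with a 95% interval from 1.06 to 1.77, and the edgeR adjusted p of 0.0739 missed the threshold. It did so under each of the 18 alternatives as well, with adjusted p between 0.0739 and 0.262.

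BTC, a ligand of EGFR and ERBB4, is on chromosome 4, 290 kb downstream of AREG (chr4:74744759-74794686, minus strand). It was scarce, at 0.488, 0.368 and 0.193 FPKM in Vector 1 to 3 and 0.741, 1.12 and 0.570 FPKM in OE-MMP28 1 to 3. These values rest on 21, 14 and 8 counts and on 33, 50 and 27 counts, respectively. Every OE-MMP28 library was above every Vector library. The log2 fold change was 1.21 (SE 0.41), a fold of 2.32 with a 95% interval from 1.28 to 4.20 (edgeR adjusted p = 0.0374). The call was lost without Vector 2 (edgeR adjusted p = 0.0543), Vector 3 (0.174), OE-MMP28 1 (0.0671) or OE-MMP28 2 (0.225), and in limma on log2(FPKM + 1) (0.158). In Vector 3 its count was below the minimum of the low-count filter, which asks for that level in 3 libraries. BTC therefore passed only with the OE-MMP28 libraries, where it was higher. With no filter on low counts its edgeR adjusted p was 0.0241.

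EGF, the founding ligand of the family, is also on chromosome 4 (chr4:109912884-110012266, plus strand). It had 0 counts in the 3 Vector libraries and 6, 0 and 2 counts in OE-MMP28 1 to 3, the largest of which is 0.0619 FPKM. A count of 0 allows up to 0.0293 to 0.0359 FPKM here, and no difference was detectable at this depth.

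EREG, AREG and BTC are the tested genes of a stretch of 486 kb on chromosome 4 (chr4:74308473-74794686) that also holds EPGN, the gene of epigen. EPGN had 1 or 2 counts in each library. The 3 tested genes had log2 fold changes of 0.19, 0.31 and 1.21, of which that of BTC alone passed, and the median of the genes within 5 Mb was 0.03.

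Vector 1 stood apart from the other Vector libraries for AREG, EREG and TGFA. Its normalised count was 1.78 times the mean of Vector 2 and 3 for AREG, 1.81 times for EREG and 1.74 times for TGFA, and 1.01 times for HBEGF. For BTC the ratio was 1.73, but Vector 3, with 8 counts, was the library farthest from its group mean. Of all genes with a ratio, 2.03% to 2.46% were at or above the ratios of AREG, EREG, TGFA and BTC, and 7.35% were at or above 1.4. Of the receptors, ERBB3 and ERBB2 were lower in Vector 1, at 0.710 and 0.725 times, and EGFR was at 1.17 times. Of all genes with a ratio, 14.0% were at or below that of ERBB3 and 15.1% at or below that of ERBB2. The mitochondrial share of counts was 11.9% in Vector 1, against 14.5% and 14.8% in Vector 2 and 3 and 8.80% to 11.9% in the OE-MMP28 libraries, and its part in these differences was not tested. In the OE-MMP28 group, OE-MMP28 3 was the lowest library for EGFR, ERBB3, EREG, TGFA and BTC and the highest for HBEGF. Its ratio to the mean of OE-MMP28 1 and 2 was set beside that of all tested genes. Of these, 30.4% were at or below the ratio of ERBB3, 11.6% that of TGFA and 8.43% that of EGFR. For EREG, BTC and HBEGF the shares at or below were 5.97%, 3.24% and 83.5%.

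**Figure D3:**
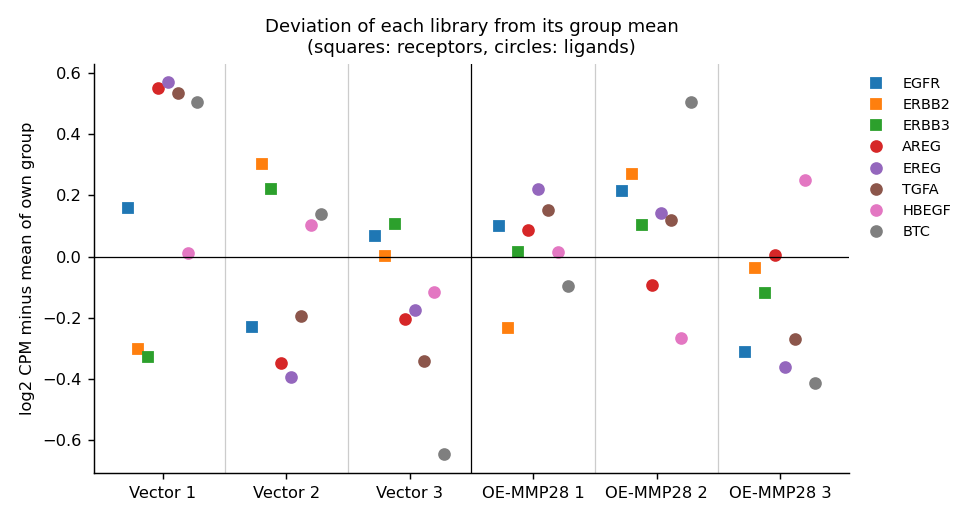
Deviation of each library from the mean of its own group, in log2 CPM (counts divided by the effective library size), for the 8 tested members. Squares are receptors and circles are ligands, and the heavy line divides the groups. In Vector 1, AREG, EREG, TGFA and BTC lie between 0.51 and 0.57 above the mean and ERBB2 and ERBB3 lie at -0.30 and -0.33.

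The summed ligand FPKM was 54.6, 33.3 and 33.4 in Vector 1 to 3 and 50.6, 45.0 and 43.9 in OE-MMP28 1 to 3. Vector 1 exceeded every OE-MMP28 library and the other Vector libraries lay below all of them. AREG held the largest share of this sum and EGF and BTC the smallest in every library, and the order of the others varied. AREG held 39.3% ± 2.70 of it in the Vector group and 42.7% ± 2.05 in the OE-MMP28 group (SD, n = 3), and EREG held 18.4% ± 1.72 and 18.3% ± 3.09. TGFA held 26.0%, 25.6% and 23.0% in Vector 1 to 3 and 19.2%, 20.6% and 16.1% in OE-MMP28 1 to 3. The TGFA shares of the groups did not overlap, and Vector 1 was not apart from its group on this measure. A share also moves with the other ligands, and the level of TGFA itself overlapped between the groups (edgeR adjusted p = 0.478). The shares were not tested. BTC held 0.858% ± 0.265 and 1.75% ± 0.643.

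Per length, the order of mean levels in the Vector group was EGFR, ERBB3, AREG, TGFA, ERBB2, EREG, HBEGF and BTC. The ranges of EGFR and ERBB3 overlapped there, as did those of AREG with TGFA, of TGFA, ERBB2 and EREG with one another and of EREG with HBEGF. Within each Vector library, however, AREG was above TGFA and TGFA was above EREG, and ERBB3 was above AREG and BTC was below HBEGF in every library. In the OE-MMP28 group the order was EGFR, ERBB3, AREG, TGFA, HBEGF, EREG, ERBB2 and BTC. EGFR, ERBB3 and AREG were each separate from their neighbours in this group, and TGFA, HBEGF, EREG and ERBB2 overlapped.

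The genes whose log2 CPM over the 6 libraries was most like that of EGFR, among 6660 protein-coding genes of at least 5 FPKM, were TAF1 (Pearson's r = 0.992), CFAP97 (0.987) and RNMT (0.985). For ERBB3 they were ZNF395 (0.989), SEMA4G (0.986) and FMO5 (0.986), and for AREG they were HEATR3 (0.990), PSMD11 (0.979) and RNASEH1 (0.978). These values describe likeness over 6 libraries that all genes share, without a test. ZNF395, SEMA4G and FMO5 had log2 fold changes of -0.33, -0.80 and -1.22 (edgeR adjusted p = 0.131, 0.00287 and 0.000819). They were picked for likeness to ERBB3 over both groups, so a fall alongside it follows from the choice.

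The rest of the pathway was described by 6 lists chosen for function, with 74 distinct genes of which 68 were tested. In OE-MMP28 cells 12 of the 68 were higher and 8 were lower at an edgeR adjusted p under 0.05, beside 11.7% and 11.6% of all genes tested. Non-overlapping groups were found for 31 of the 68, beside 38.1% of all genes. The median log2 fold change of the 68 was 0.041. Of the 20 calls, 7 held whichever library was left out, those of SOS1, GAB2, PIK3R1, LRIG1, CBLB, EPHA2 and EPHA4.

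**Figure D4:**
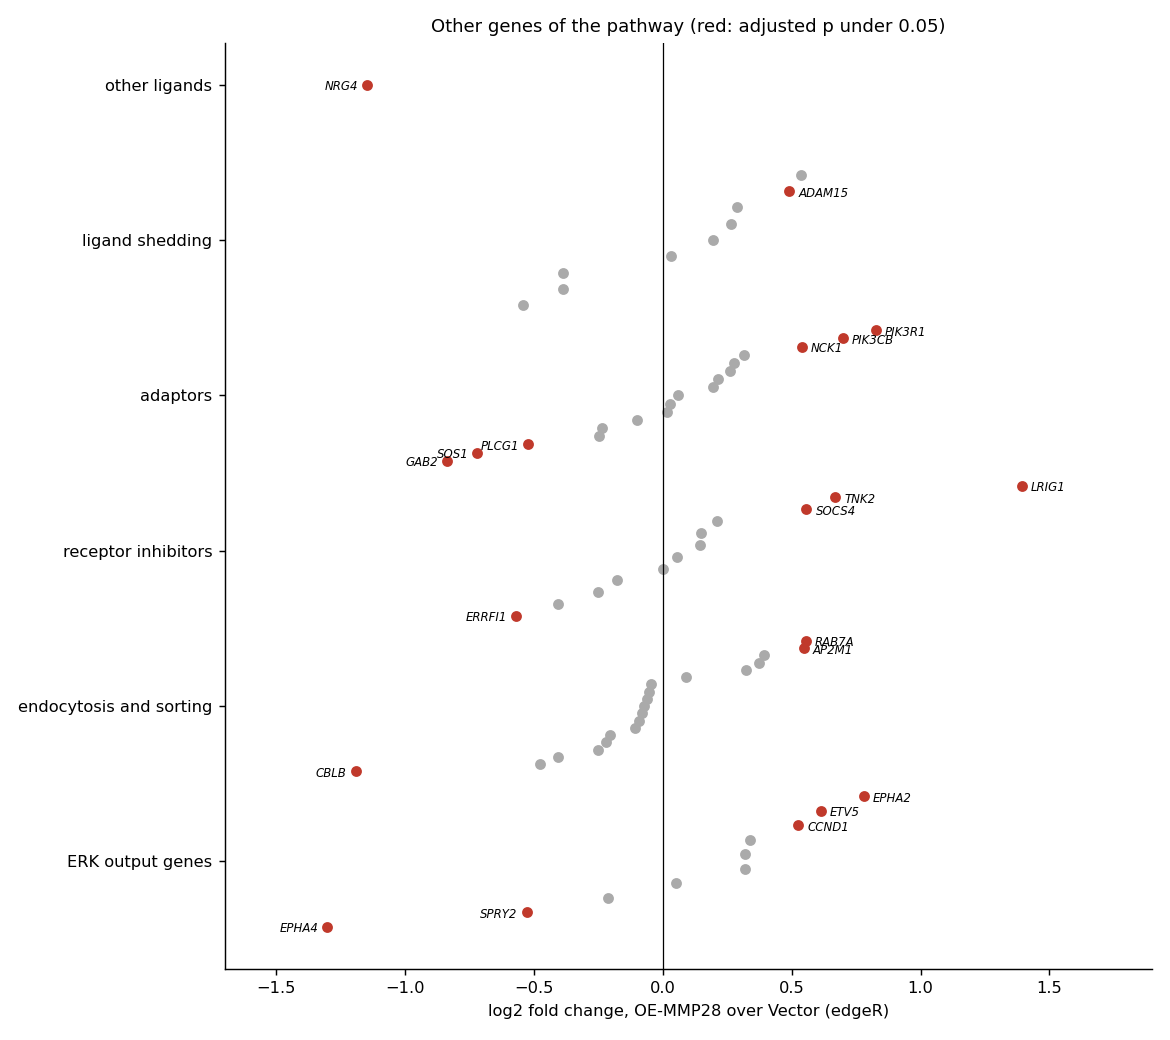
Log2 fold change of OE-MMP28 over Vector (edgeR, n = 3 per group) for the 68 tested genes of 6 pathway lists, spread vertically within a list by rank. Red and named are genes with an adjusted p under 0.05, and grey are the others. LRIG1 is the highest of the 68 at 1.39, and EPHA4, CBLB and NRG4 are the lowest.

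Of the other ERBB ligands, NRG4, a neuregulin that binds ERBB4, was the 1 of 5 that could be tested. It was measured at 0.559, 0.838 and 0.998 FPKM in Vector 1 to 3 and at 0.490, 0.288 and 0.295 FPKM in OE-MMP28 1 to 3, on 23 to 74 counts. Every OE-MMP28 library was lower. NRG4 had a log2 fold change of -1.15 (SE 0.33, edgeR adjusted p = 0.0152), and the call was lost without Vector 3 (edgeR adjusted p = 0.0912), OE-MMP28 2 (0.0811) or OE-MMP28 3 (0.0715). NRG1 and NRG2, the neuregulins that bind ERBB3, had at most 1 count in any library, under the 3 counts that a count of 0 allows, and NRG3 had none.

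Of the 10 genes of ligand shedding, 9 were tested, 1 was higher and none was lower, with a median log2 fold change of 0.20. ADAM15, a membrane protease, was higher by 0.49 (SE 0.15, edgeR adjusted p = 0.0224), from 12.6 ± 0.402 to 17.5 ± 2.10 FPKM (SD, n = 3). This call was lost without Vector 3 (edgeR adjusted p = 0.102), OE-MMP28 2 (0.144) or OE-MMP28 3 (0.0692). ADAM17, the main sheddase of AREG, TGFα and HB-EGF, had a log2 fold change of -0.39 (edgeR adjusted p = 0.107), and ADAM10, which sheds betacellulin and EGF, had 0.20 (0.396). Both were named after their values were seen.

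Of 18 genes for adaptors and effectors, 17 were tested, 3 were higher and 3 were lower, with a median of 0.060. PIK3R1, the regulatory subunit of PI3K, was higher by 0.83 (SE 0.16, edgeR adjusted p = 0.00103). It was measured at 2.83, 3.01 and 2.92 FPKM in the Vector libraries and at 6.04, 4.94 and 4.46 FPKM in the OE-MMP28 libraries. PIK3CB, a catalytic subunit, was higher by 0.70 (edgeR adjusted p = 0.00751), and NCK1, an adaptor to the actin machinery, by 0.54 (0.0268). GAB2, a docking protein for PI3K and SHP2, was lower, with a log2 fold change of -0.84 (SE 0.17, edgeR adjusted p = 0.00142), as were SOS1, a guanine nucleotide exchange factor, at -0.72 (0.00268) and PLCG1, phospholipase Cγ, at -0.52 (0.0279). PIK3CB lost its call without OE-MMP28 2 (edgeR adjusted p = 0.0618). NCK1 lost it without Vector 3, OE-MMP28 1 or OE-MMP28 2 (0.139, 0.0941 and 0.130), and PLCG1 without Vector 2, Vector 3, OE-MMP28 1 or OE-MMP28 2 (0.124, 0.0849, 0.0872 and 0.103).

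Of 12 receptor inhibitors, all were tested, 3 were higher and 1 was lower, with a median of 0.10. LRIG1, a membrane protein that promotes degradation of ERBB receptors, was measured at 4.47, 3.32 and 5.89 FPKM in Vector 1 to 3 and at 11.5, 12.7 and 11.5 FPKM in OE-MMP28 1 to 3. The lowest OE-MMP28 library was far above the highest Vector library. The log2 fold change was 1.39 (SE 0.18), a fold of 2.62 with a 95% interval from 2.01 to 3.43 (edgeR adjusted p = 2.3e-05). ERRFI1, the cytoplasmic EGFR inhibitor also called MIG6, moved the other way, from 39.8, 62.9 and 46.9 FPKM to 36.1, 31.0 and 32.9 FPKM, with a log2 fold change of -0.57 (SE 0.16, edgeR adjusted p = 0.0162). TNK2, a cytoplasmic tyrosine kinase that binds EGFR, was higher by 0.67 (edgeR adjusted p = 0.0106), and SOCS4, which marks EGFR for degradation, by 0.56 (0.0305). ERRFI1 lost its call without Vector 2, OE-MMP28 2 or OE-MMP28 3 (edgeR adjusted p = 0.105, 0.0896 and 0.0509). TNK2 lost it without OE-MMP28 2 or OE-MMP28 3 (0.103 and 0.0603), and SOCS4 without Vector 2, Vector 3, OE-MMP28 1 or OE-MMP28 2 (0.134, 0.0615, 0.110 and 0.128).

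Of 19 genes for endocytosis and sorting of the receptors, all were tested, 2 were higher and 1 was lower, with a median of -0.07. CBLB, a ubiquitin ligase of activated EGFR, was measured at 1.503, 2.03 and 1.86 FPKM in the Vector libraries and at 0.923, 0.848 and 0.572 FPKM in the OE-MMP28 libraries. Its log2 fold change was -1.19 (SE 0.20, edgeR adjusted p = 0.000351). RAB7A, a small GTPase of late endosomes, was higher by 0.55 (edgeR adjusted p = 0.00953), and AP2M1, a subunit of the clathrin adaptor AP-2, by 0.55 (0.0123). RAB7A lost its call without Vector 3 (edgeR adjusted p = 0.0586), and AP2M1 without Vector 3 or OE-MMP28 2 (0.0998 and 0.0775).

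Of 10 genes that are commonly read as output of ERK signalling, all were tested. Of these, 3 were higher and 2 were lower, beside 11.7% and 11.6% of all genes tested. The other 5 did not pass, and the median was 0.32. EPHA2, a receptor tyrosine kinase, was higher by 0.78 (SE 0.15, edgeR adjusted p = 0.00103), from 56.8, 51.6 and 46.3 FPKM to 75.2, 94.6 and 93.3 FPKM. EPHA4, of the same receptor family, fell, from 5.18, 4.09 and 5.12 FPKM to 2.01, 2.07 and 1.72 FPKM, with a log2 fold change of -1.30 (SE 0.17, edgeR adjusted p = 2.4e-05). ETV5, a transcription factor, was higher by 0.61 (edgeR adjusted p = 0.00712) and CCND1, the gene of cyclin D1, by 0.52 (0.0207). SPRY2, a feedback inhibitor of receptor signalling, was lower at -0.53 (edgeR adjusted p = 0.0141). ETV5 lost its call without OE-MMP28 2 (edgeR adjusted p = 0.0659). SPRY2 lost it without Vector 3 or OE-MMP28 2 (0.0816 and 0.0659). CCND1 lost it without Vector 2, Vector 3, OE-MMP28 1 or OE-MMP28 2 (0.0723, 0.105, 0.0701 and 0.0879). Set against the median of the genes within 5 Mb, ETV5 was at 0.21 (edgeR adjusted p = 0.397) and CCND1 at 0.20 (0.433).

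Position on the chromosome went with several of these calls. Of the 12 pathway genes that were higher, 6 (PIK3CB, NCK1, TNK2, AP2M1, RAB7A and ETV5) start between 128 and 196 Mb of chromosome 3, a window set after the values were seen. In that window 137 of 282 tested genes were higher (48.6%, beside 11.7% of all genes) and 4 were lower, and the median log2 fold change was 0.56. With each gene set against the median of the genes within 5 Mb, 9 of the 20 pathway calls held, 3 higher (LRIG1, PIK3R1 and EPHA2) and 6 lower (NRG4, GAB2, ERRFI1, CBLB, SPRY2 and EPHA4). NCK1, SOCS4 and RAB7A then turned to log2 differences of -0.17, -0.015 and -0.049. Copy number was not measured, and its part in the regional shift was not tested.

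For the members, the neighbours within 5 Mb had median log2 fold changes of 0.24 for EGFR, -0.49 for TGFA, and between 0.00053 and 0.035 for the other 6 tested. Against its neighbours, EGFR was at -0.35 (edgeR adjusted p = 0.151) and TGFA at 0.27 (0.400), a turned sign that did not pass. ERBB3 stayed at -0.57 (edgeR adjusted p = 0.0167), HBEGF was at 0.43 (0.107), and BTC at 1.18 (0.0576) no longer passed. The fold change of BTC had hardly moved from 1.21. The offset fit called 1136 genes of the table higher, against 1795 in the main fit. The part of this in the lost call of BTC was not tested.

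**Figure D5:**
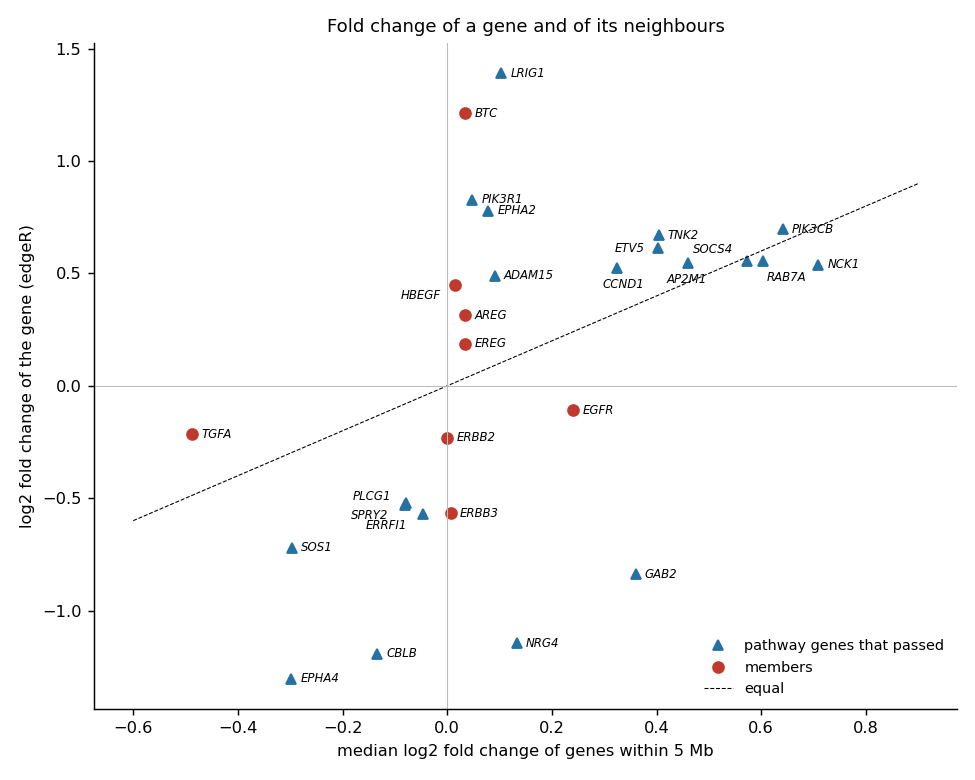
Log2 fold change (edgeR, OE-MMP28 over Vector) of the 8 tested members (circles) and of the 20 pathway genes with an adjusted p under 0.05 (triangles), against the median log2 fold change of the tested genes within 5 Mb. On the dashed line a gene and its neighbours changed alike. RAB7A, SOCS4, NCK1 and PIK3CB lie near it, whereas ERBB3, BTC, LRIG1 and EPHA4 lie far from it.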

How the data were processed

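RNA of 6 AsPC-1 libraries had been sequenced after preparation with the NEBNext Ultra kit. The submitters' processing notes name HISAT2 (2.0.5) and featureCounts (1.5.0-p3), without strand setting or genome build. The authors deposited whole-number read counts per gene, not normalized, and FPKM values, whose implied totals differed from the summed counts by -2.01% to 2.02%. The identifiers and coordinates of all 58735 genes matched GENCODE 29 (GRCh38), which gave positions and exon overlaps. The deposited table also holds the authors' own fold changes and p-values, which were not used. No per-sample column was left unmapped.

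Genes were filtered with filterByExpr (minimum count 10, minimum total 15) and tested by the quasi-likelihood test of edgeR (4.0.16, R 4.3.3) with TMM scaling and the group alone. P-values were adjusted by the Benjamini-Hochberg procedure over 15319 genes at a threshold of 0.05. Fold changes are OE-MMP28 over Vector. The intervals are 95% intervals of that fit. The exact permutation test used scipy (1.17.1). Alternatives used DESeq2 (1.42.0) and limma (3.58.1) among others. Scripts were tested on simulated data. A count of 0 was taken to allow 3 counts, 0.180 to 0.220 CPM in these libraries, and such floors cover counting error only. Levels between genes were compared as FPKM. Promoters came from RefSeq (GRCh38.p14).

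The members and lists were chosen with earlier results of these data known. All 10 members and MMP28 were named, from each pathway list the genes that passed (at most 6, by fold change), and for EGFR, ERBB3 and AREG the 3 most similar protein-coding genes. Groups came from the labels. Protein sequences were not used here.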

Additional observations from a re-analysis of the deposited data

How the results depend on the processing

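Each result was recomputed under 18 alternatives, among them a fold change threshold that reuses the main fit and so cannot move a fold change. With an offset for the median of genes within 5 Mb, 1136 genes of the table were higher, 0 members were higher and 4 pathway genes were higher. Limma on log2(FPKM + 1) called 1009 genes higher and 965 lower, 0 members in either direction, and 6 pathway genes higher and 5 lower. With log2(FPKM + 0.1) it called 1000 and 970 genes, 0 members in either direction, and 6 and 5 pathway genes. Requiring an absolute log2 fold change over 1 left 469 genes higher and 662 lower, 0 members lower, 1 pathway gene higher and 3 lower, and MMP28 at 0.90 fell under it.

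Leaving out each library in turn gave 985 to 1916 genes higher and 1044 to 1949 lower, 0 to 3 members higher and 0 to 1 lower, 4 to 12 pathway genes higher and 4 to 9 lower, and a log2 fold change of MMP28 between 0.69 and 1.05. The lowest counts of genes, 985 and 1044, came without OE-MMP28 2, and 1136 and 1231 were left without Vector 3. The 3 members higher without Vector 1 were AREG, EREG and BTC, and in each Vector 1 was the highest Vector library.

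The sign reversed for EGFR without OE-MMP28 3 (0.036, against -0.22 at the lowest), for TGFA without Vector 1 (0.11, against -0.38 at the lowest) and with the offset (0.27), and with the offset for NCK1 (-0.17), SOCS4 (-0.015) and RAB7A (-0.049). The lowest values are those of the runs that each left out a single library. The cause was not tested. MMP28 kept its direction in all 18 alternatives, but its groups did not overlap, so leaving out a library could hardly turn it.

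With the replicate block, 1844 genes were higher and 1841 lower, and 1 member was higher and 1 lower. Deviations of same-numbered libraries correlated at 0.02, 0.01 and -0.09 across genes. No deviation shared by number was thus seen over all genes, and one limited to some genes was not tested. Voom, DESeq2, other filters and other scalings moved no count of calls by over 1.5 times. With 3 libraries per group and 8 to 50 counts of BTC per library, precision was lowest for BTC among the tested members.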
